A study of Mus musculus with 9 samples.

Results

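The genes described here are 47 members of the DNA replication machinery, measured in innate lymphoid cells (ILCs) sorted from mouse skin. They were chosen by name, from what the encoded proteins do in DNA replication, nucleotide supply included, with earlier results of these data known. Each was taken as the probe set that carries its symbol in the array's annotation. All 47 had a probe set, among 19752 named genes in all. Pcna, Rpa3 and Tk1 have 2 probe sets each, of which the brighter was used. Of the 47, 45 passed the filter on dim probe sets and were tested, and Gins1 and Gmnn were given by level only. Gene expression was measured on 9 Affymetrix arrays, one for each sorted sample. All mice were female B6 animals that carry EGFP at one Ccr10 allele, so that GFP reports expression of the skin-homing chemokine receptor CCR10. Their age and the number of animals behind a sample were not stated. Cells were sorted as CD45.2+, CD3- and lineage-negative, then split by GFP. Antibodies against T cell (CD3, CD5), B cell (B220), erythroid (Ter) and myeloid surface proteins (CD11b, Gr-1, 7-4) defined the lineages left out. CCR10+/EGFP mice with intact Rag1, called Rag1-sufficient below, gave 2 GFP+ and 2 GFP- samples. Rag1-/-CCR10+/EGFP mice, which lack the recombinase needed to make T and B cell receptors, gave 2 GFP+ and 3 GFP- samples. Nothing in the labels ties replicates to separate animals, so p-values measure only how far these samples spread, and that spread may be technical.

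DNA replication starts at origins where the origin recognition complex (ORC), CDC6 and CDT1 load the ring-shaped MCM helicase, a step called licensing that geminin holds back once S phase has begun. CDC45 and the GINS complex then turn the MCM ring into the active helicase. Polymerase alpha with its primase subunits lays down primers, the RFC clamp loader places the sliding clamp PCNA on DNA, and polymerases delta and epsilon extend the strands. Most of these genes are transcribed when cells pass from G1 into S phase, in large part under E2F transcription factors, so that their transcripts are widely read as a sign of how many cells are cycling. Skin ILCs are largely resident lymphocytes that divide slowly at rest and more often after cytokine stimulation. In a bulk sample, fewer cells of a type and less RNA per cell cannot be told apart.

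The promoter letters that E2F factors are known to bind were searched for, with the motifs chosen after values were seen. Replication genes are in large part under E2F factors, so the choice of members bears on the share found. It is given as a description. RefSeq windows of 300 bases (250 before to 50 after the start, GRCm38.p6) were found for 39 of the 47 members. The letters TTTCCCGC, TTTGGCGC, TTTCGCGC or TTTGCCGC, on either strand, were present in a window of 15 of these 39 members (38.5%), against 704 of all 27025 genes with a window (2.61%). The CCAAT box, searched as CCAAT on either strand, was present in 24 of 39 members (61.5%) and in 41.1% of all genes. The letters TTTGAA, known as the cell cycle homology region, were present in 6 of 39 members (15.4%) and in 20.2% of all genes. These are matches of letters, and base composition was not matched between the members and the other promoters. Below, the 170 bases before the start are shown, 5′ to 3′, with E2F letters in capitals. Mcm6, Mcm5, Orc1 and Cdc6 are shown as members that hold the letters there, and in Mcm5 and Mcm6 a pair of matches on opposite strands overlap. Rfc4 and Asf1b are shown because they were the 2 members called in the comparison of GFP+ with GFP- cells. Neither window holds the E2F letters. The Asf1b window holds TTTGAA at -14 and CCAAT on the opposite strand at -200, -121, -79 and -39 from the start, and Rfc4 had no match to either.
Mcm6 (chr1:128359706-128359875, minus strand): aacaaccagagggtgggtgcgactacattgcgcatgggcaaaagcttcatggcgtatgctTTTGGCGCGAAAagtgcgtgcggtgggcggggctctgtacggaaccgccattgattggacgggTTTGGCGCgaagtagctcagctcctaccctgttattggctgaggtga
Mcm5 (chr8:75109339-75109508, plus strand): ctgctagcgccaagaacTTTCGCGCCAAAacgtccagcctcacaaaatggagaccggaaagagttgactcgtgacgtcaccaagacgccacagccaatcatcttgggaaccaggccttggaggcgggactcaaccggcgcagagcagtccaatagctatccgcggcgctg
Orc1 (chr4:108579284-108579453, plus strand): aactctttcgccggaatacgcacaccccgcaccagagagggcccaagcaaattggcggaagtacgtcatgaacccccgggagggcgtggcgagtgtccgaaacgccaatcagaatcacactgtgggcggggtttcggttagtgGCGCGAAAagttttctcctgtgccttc
Cdc6 (chr11:98907981-98908150, plus strand): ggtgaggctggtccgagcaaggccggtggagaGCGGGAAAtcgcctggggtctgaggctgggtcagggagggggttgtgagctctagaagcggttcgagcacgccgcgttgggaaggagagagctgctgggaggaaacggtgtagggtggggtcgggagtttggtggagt
Rfc4 (chr16:23127731-23127900, minus strand): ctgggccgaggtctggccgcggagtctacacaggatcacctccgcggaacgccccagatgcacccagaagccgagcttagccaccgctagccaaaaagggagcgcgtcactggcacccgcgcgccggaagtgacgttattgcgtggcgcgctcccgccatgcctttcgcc
Asf1b (chr8:83955524-83955693, plus strand): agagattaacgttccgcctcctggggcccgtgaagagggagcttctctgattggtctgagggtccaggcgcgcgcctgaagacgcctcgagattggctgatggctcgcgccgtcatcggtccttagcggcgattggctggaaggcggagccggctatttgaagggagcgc

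Array medians lay between 74.1 and 77.6 intensity units. The ILC genes Id2 and Il7r were bright on all arrays (6727 to 7905 and 2566 to 3806 units). Rag1 read 28.4 to 31.4 on all 9 arrays, below the filter limit of about 41.6 units, and so gave no check of the genotype. Ccr10 read 163 and 130.3 in GFP+ and 129 and 126 in GFP- samples of Rag1-sufficient mice, and 148 and 96.5 against 103, 125 and 109 in Rag1-/- mice, so that the fractions overlap in the mutant. Rank correlations within a group were lowest between the 2 Rag1-/- GFP+ arrays (0.958), and replicate 1 of that group was closer to Rag1-sufficient GFP- replicate 1 (0.971). Exactly equal values on several arrays occur in 12464 of all 24922 probe sets (50.0%) and in 20 of the 47 members. Cdc45 and Fen1 held the same value on both Rag1-sufficient GFP- arrays, so that their spread is understated.

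The replication genes were read at their highest in GFP+ cells of Rag1-sufficient mice. Of the 47 members, 31 had their highest group mean there, against 5615 of all 19752 named genes. In Rag1-/- GFP- cells 11 had theirs, against 4212 of all. The lowest group mean was in Rag1-sufficient GFP- cells for 22 members, against 4806 of all. It was in Rag1-/- GFP+ cells for 18, against 4031 of all. Setting each member against its own mean over the 9 arrays on the log2 scale, the median member stood at 0.18 and 0.17 on the 2 Rag1-sufficient GFP+ arrays and at -0.09 and -0.18 on the GFP- arrays of the same genotype. In Rag1-/- mice it stood at -0.19 and -0.01 on the GFP+ arrays and at -0.05, -0.02 and 0.09 on the GFP- arrays. Rag1-/- GFP+ replicate 1 was the lowest of all 9 arrays for 23 members, and Rag1-/- GFP- replicate 3 the highest for 16, more than any other array. Each Rag1-sufficient GFP+ array was the highest for 13.

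**Figure D1:**
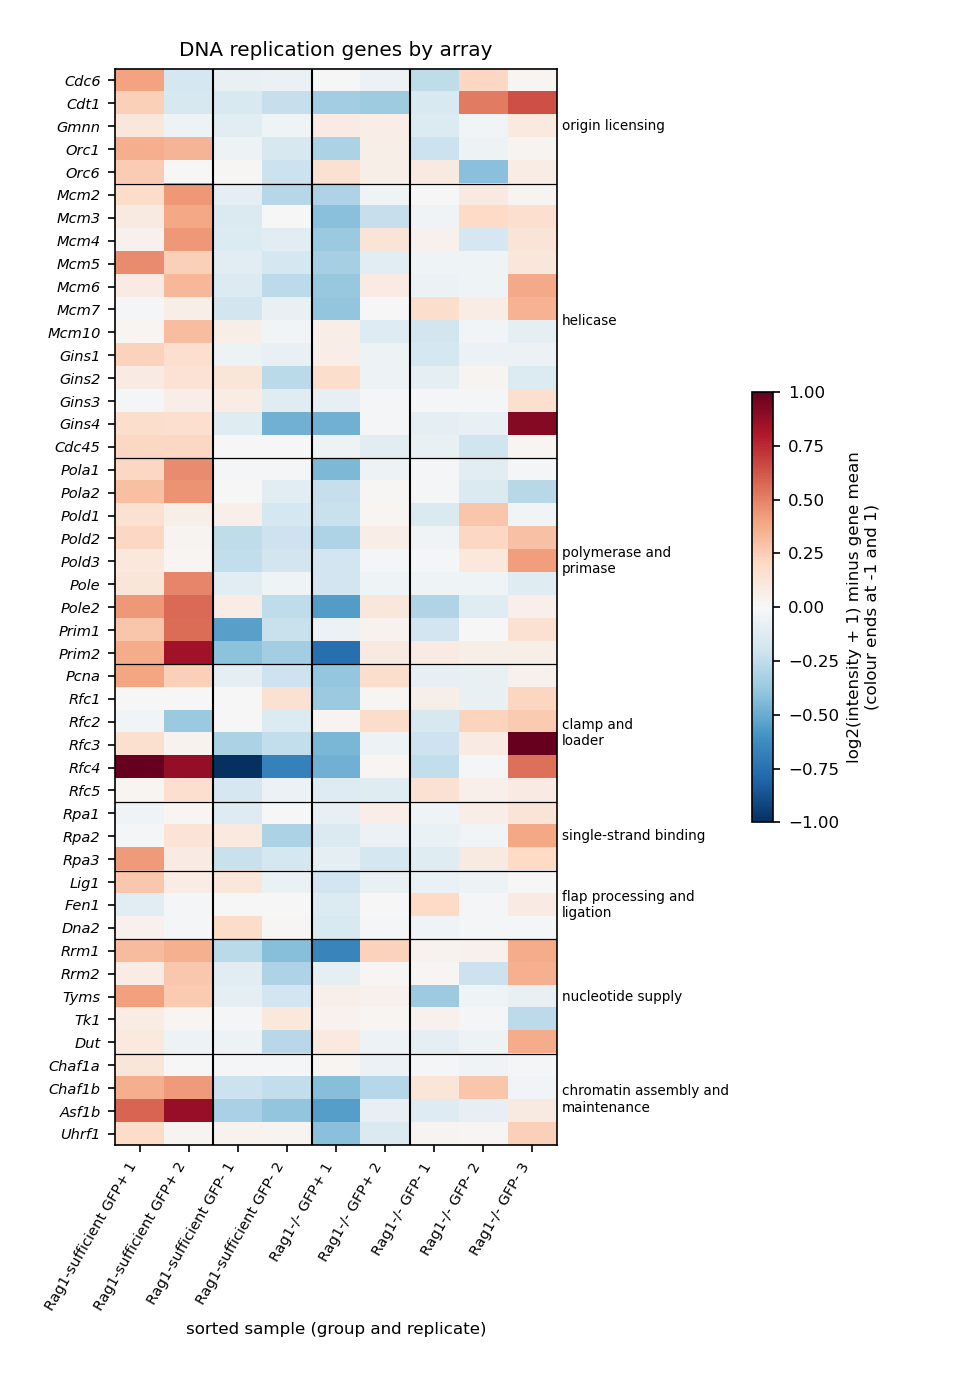
Each row is 1 of the 47 replication genes, grouped by role, and each column 1 of the 9 arrays. Colour gives log2(intensity + 1) minus the gene's mean over the arrays, red above and blue below. The 2 Rag1-sufficient GFP+ columns are mostly red and Rag1-/- GFP+ replicate 1, the lowest array for 23 members, mostly blue. Rag1-/- GFP- replicate 3 stands out for Rfc3 and Gins4, and for Cdt1 replicates 2 and 3 of that group are both high.

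The first comparison asked how GFP+ differ from GFP- cells when Rag1 is intact. Rfc4, a subunit of the clamp loader, and Asf1b, a histone chaperone that hands histones to the replication-coupled assembly factor, rose in GFP+ cells. They were the only members to pass an adjusted p of 0.05 in limma's moderated test with Benjamini-Hochberg adjustment over all 17445 probe sets, that is 2 of the 45 tested, both higher. Of all probe sets 0.803% were called, 0.332% as higher. The list as a whole lay above 0: 42 of the 47 members had a positive difference, as had 51.8% of all named genes, and the median member differed by 0.28 on the log2 scale against 0.00 over all genes. Unadjusted p-values under 0.05 with a positive difference were found for 16 of the 45, against 8.16% of all probe sets. In 30 of the 47 both GFP+ arrays read above both GFP- arrays, which was so for 24.2% of all named genes. In 1 member, Fen1, both read below, as in 20.4% of all named genes.

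Rfc4 read 377 and 348 on the GFP+ and 91.5 and 118 on the GFP- arrays of Rag1-sufficient mice, a rise of 1.79 ± 0.27 on the log2 scale or 3.47-fold (estimate ± SE, adjusted p = 0.0256). The lowest GFP+ value was well above the highest GFP- value. The other clamp loader genes did not share this size. The large subunit Rfc1 read 90.0 and 89.8 against 89.7 and 99.4 and Rfc2 read 72.1 and 56.6 against 73.8 and 66.8, with overlapping groups in both. Rfc3 differed by 0.38 ± 0.33 (adjusted p = 0.748), while Rfc5 read 361 and 399.7 against 316 and 340.5. The clamp itself, Pcna, read 4926 and 4416 on the GFP+ and 3496 and 3242 on the GFP- arrays (0.47 ± 0.17, adjusted p = 0.281). Its groups do not overlap, and its other probe set gave nearly the same difference, 0.46.

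Asf1b read 448 and 546 on the GFP+ and 238 and 227 on the GFP- arrays, a rise of 1.09 ± 0.19 or 2.12-fold (adjusted p = 0.0477), close to the threshold. Chaf1b, the p60 subunit of chromatin assembly factor 1 to which histones are passed, read 128 and 134 against 85.4 and 83.2 and missed the threshold (0.63 ± 0.12, adjusted p = 0.0579). The large subunit of the same factor, Chaf1a, read 93.9 and 86.2 against 85.7 and 85.7, a difference of 0.07 ± 0.08 with a 95% interval of -0.12 to 0.26, so that a change of the size of Chaf1b lies outside its interval. Whether the 2 subunits differ in their change was not tested. Uhrf1, which guides maintenance methylation to newly made DNA, differed by 0.07 ± 0.12 (adjusted p = 0.897), with 67.8 and 60.9 against 61.3 and 60.9.

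All 9 genes of the polymerase and primase group read higher on both GFP+ than on both GFP- arrays, as did 24.2% of all named genes. None of the 9 passed. The primase subunits had the largest differences. Prim1, the catalytic subunit that makes RNA primers, read 55.4 and 67.8 against 31.1 and 38.9 (0.80 ± 0.15, adjusted p = 0.0605), and its GFP- values lie under the filter limit, so the size is approximate. Prim2, the large primase subunit, read 172 and 239 against 99.7 and 104 (0.99 ± 0.25, adjusted p = 0.141), and its GFP+ arrays lie far apart. Pola1, the catalytic subunit of polymerase alpha, differed by 0.35 ± 0.14 (adjusted p = 0.336). Pole, the leading strand polymerase epsilon, differed by 0.38 ± 0.12 (adjusted p = 0.224) and its partner Pole2 by 0.59 ± 0.21 (adjusted p = 0.287). Pole2 read 40.9 on GFP- replicate 2, also under the limit, so its size is approximate. The 4 other genes, Pola2 and the polymerase delta genes Pold1, Pold2 and Pold3, ran from 0.17 to 0.43.

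The helicase group had 12 positive differences of 12, each of 0.50 or less, and no call. Mcm5 read 235 and 199.7 against 157 and 149.7 (0.50 ± 0.14, adjusted p = 0.172) and Mcm2 read 307 and 364 against 253 and 222 (0.50 ± 0.16, adjusted p = 0.232). The 6 MCM subunits form 1 ring in equal number, and their differences ran from 0.15 for Mcm7 to 0.50 for Mcm5. In between lay Mcm3 (0.31 ± 0.14), Mcm4 (0.36 ± 0.21) and Mcm6 (0.41 ± 0.22). In each of the 6 the GFP+ arrays read above the GFP- arrays, as in 24.2% of all named genes. Cdc45, which joins the ring to make the active helicase, read 149 and 149 against 129 and 129 (0.21 ± 0.11, adjusted p = 0.477). Among the GINS genes, Gins4 read 230.2 and 229 against 187 and 146 (0.47 ± 0.33, adjusted p = 0.645), whereas Gins2 overlapped between the fractions (0.18 ± 0.15, adjusted p = 0.704). Gins1 stayed at 14.2 to 19.1 units on all arrays, below the filter limit, as did Gmnn at 25.8 to 30.8, so no change can be read for the GINS subunit PSF1 or for geminin.

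Licensing genes gave little separation. Cdc6 read 96.4 and 64.4 in GFP+ and 69.1 and 69.3 in GFP- cells (0.19 ± 0.19, adjusted p = 0.802), the GFP+ replicates standing on either side of the GFP- values. Only Orc1, the cycling subunit of ORC, had groups that did not overlap among the 5 licensing genes, with 69.6 and 68.4 against 52.1 and 48.0. Cdt1 and Orc6 overlapped.

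Nucleotide supply was uneven. Rrm1, the large subunit of ribonucleotide reductase, read 844 and 867 against 561 and 505 (0.69 ± 0.27, adjusted p = 0.330) and its small S-phase subunit Rrm2 read 253 and 289 against 223 and 194 (0.38 ± 0.20, adjusted p = 0.484). Thymidylate synthase, Tyms, read 136 and 122 against 95.7 and 89.1 (0.47 ± 0.13, adjusted p = 0.159). In these 3 the fractions did not overlap. Thymidine kinase, Tk1, read 127 and 122 against 119.6 and 130.2, with a difference near 0 and a 95% interval of -0.28 to 0.28. Of the genes that finish lagging strand fragments, the flap nuclease Fen1 differed by -0.06 ± 0.10 and DNA ligase Lig1 by 0.15 ± 0.11 (adjusted p = 0.892 and 0.651). Of the 3 subunits of the single-strand binding protein RPA, Rpa3 alone had groups that did not overlap, the lowest GFP+ value being 118 and the highest GFP- value 99.1. Its dimmer probe set gave 1.09 where the brighter gave 0.45, so the size for Rpa3 depends on the probe set.

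**Figure D2:**
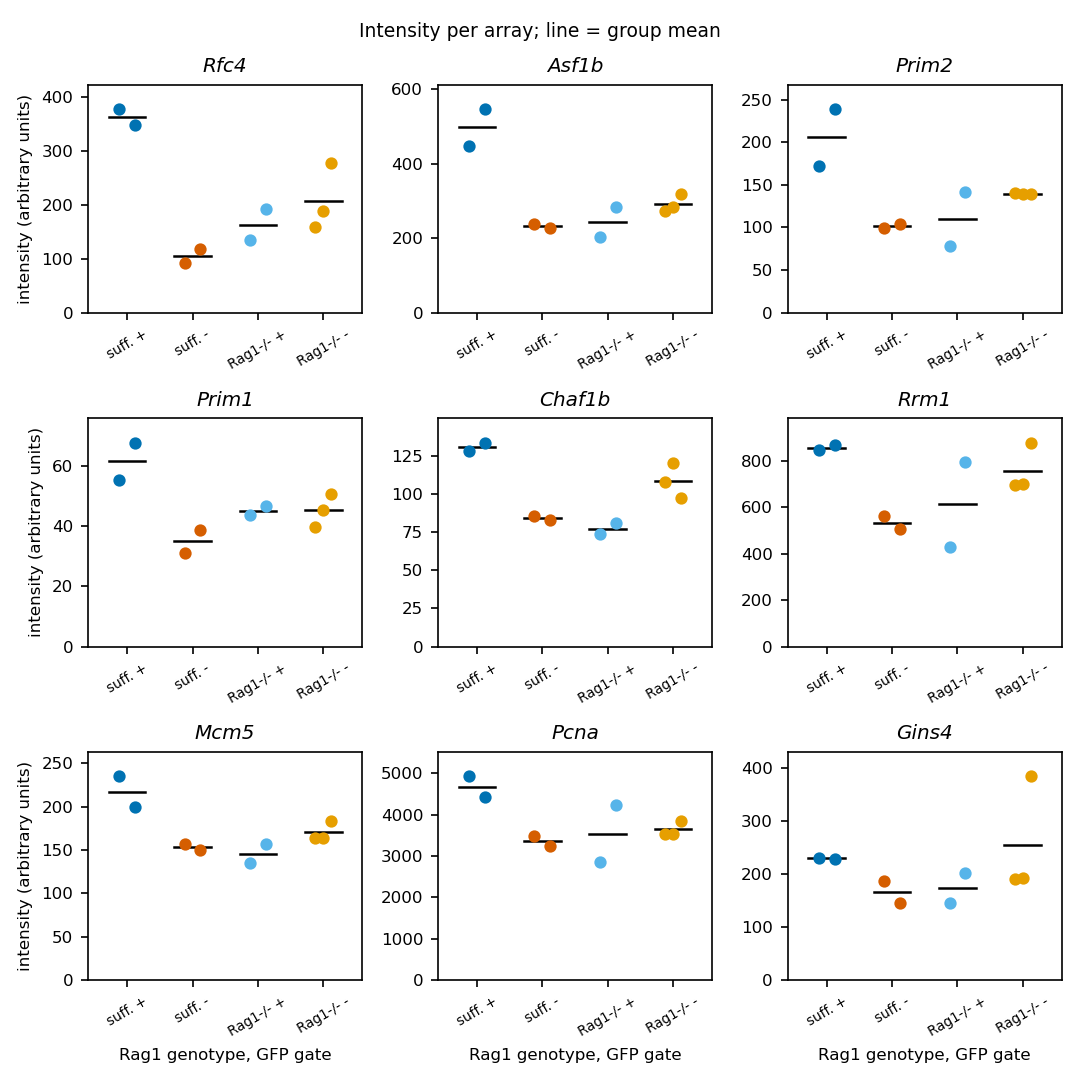
Intensity of 9 replication genes on each array, by group, with a black line at the group mean of 2 or 3 arrays; every axis starts at 0. The Rag1-sufficient GFP+ points lie above the Rag1-sufficient GFP- points in all 9 panels, while the Rag1-/- GFP+ points of Rrm1, Pcna and Prim2 lie far apart.

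The count of 2 rested on few arrays. It fell to 0 without Rag1-sufficient GFP+ replicate 1 or 2, without Rag1-sufficient GFP- replicate 1 or 2, or without Rag1-/- GFP- replicate 2, and to 1 (Rfc4) without Rag1-/- GFP- replicate 1. The calls over all probe sets, 140 with every array, were 5, 6, 5, 3, 61 and 133 in these 6 settings, in the order given. Without Rag1-/- GFP- replicate 3 it was 2, Rfc4 and Chaf1b, of 133. Without either Rag1-/- GFP+ replicate 1 or 2, which enter only through the shared spread, it was 4 (Rfc4, Prim2, Chaf1b and Asf1b) of 334 and 339 calls, and with array weights it was 14 of 1290 called probe sets. Over all 18 alternative settings the Rfc4 difference stayed between 1.61 and 1.97 and the Asf1b difference between 0.94 and 1.23, with adjusted p from 0.00145 to 0.207 and from 0.00317 to 0.385.

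**Figure D3:**
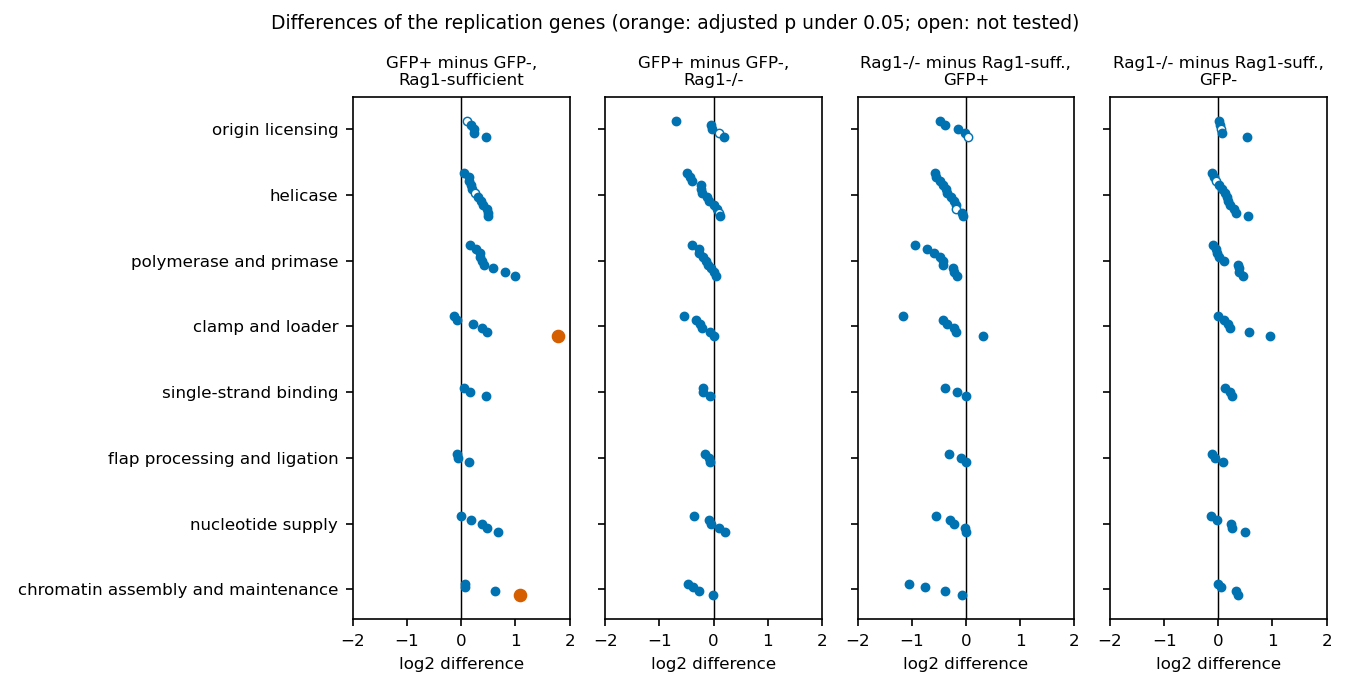
Log2 differences of the 47 replication genes in 4 comparisons, 1 point per gene, by role; orange points have an adjusted p under 0.05 and open points (Gins1 and Gmnn) were not tested. In Rag1-sufficient mice 42 points lie right of 0, with Rfc4 and Asf1b in orange; in the GFP+ comparison of genotypes 44 lie left of 0 and none passed.

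Genes around the fork and of later cell cycle steps showed where the replication list stands. Of 35 other fork, origin and chromatin assembly genes, 30 were tested and none was called, with 31 positive differences and a median of 0.25; the largest were for Dbf4, the activator of the origin-firing kinase, with 239.5 and 352 against 144 and 146 (adjusted p = 0.147), and Orc2 (0.79 ± 0.26, adjusted p = 0.251). Of 17 further nucleotide synthesis genes, all tested, none was called (median 0.11; the largest differences were those of Mthfd2, 0.74, and Cmpk1, 0.72), and of 18 repair and checkpoint genes none of the 11 tested (median 0.12; Rad18, 0.75, and Chek1, 0.42). Of 29 genes of the G1 to S transition none of the 28 tested was called (median 0.23), although Ccna2, the S-phase cyclin, differed by 1.66 ± 0.41 (adjusted p = 0.127) and Ccne2 by 1.26 ± 0.33 (adjusted p = 0.150). Of 18 mitotic genes, with a median of 0.53, 4 of the 16 tested rose, where 0.332% of all probe sets were called higher. They were the spindle checkpoint gene Mad2l1 (1.62 ± 0.22, adjusted p = 0.0182) and the spindle assembly gene Nusap1 (1.33 ± 0.12). The cyclin-degrading enzyme Ube2c (1.28 ± 0.17) and the kinase Plk1 (0.85 ± 0.12) were the others. All 4 calls were lost when any 1 Rag1-sufficient array was left out, which leaves 1 array in its group. With only the groups compared, Mad2l1, Ube2c and Plk1 lost theirs (adjusted p = 0.0641, 0.0691 and 0.0655 in limma's test). The proliferation marker Mki67 read 175 and 351 in GFP+ and 175 and 175 in GFP- cells, so that 1 GFP+ array held the same value as both GFP- arrays. Top2a, the topoisomerase that untangles copied chromosomes, read 213 and 311 against 164 and 165. Dnmt1, the maintenance methyltransferase that works behind the fork, read 259 and 329 against 242 and 261. The cyclin gene Ccne1 read 243 and 253 against 185 and 196 and the transcription factor gene E2f1 read 240.1 and 213 against 205 and 169.

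Markers of other cells differed between the same samples. The 13 mast cell genes summed to between 1025 and 1133 units on the Rag1-sufficient GFP+ and between 10805 and 11001 on the GFP- arrays. Of the 10 tested, 8 were called lower in GFP+ cells, where 0.803% of all probe sets were called in either direction. On the GFP+ arrays 7 and 8 of the 13 lay at or under the filter limit, and on the GFP- arrays 0. Genes this dim in GFP+ cells pass the filter only through other groups, so the count of 8 is a description. The mast cell protease Cpa3 read 20.3 and 21.5 against 4932 and 4965, the lower values under the filter limit. In Rag1-/- mice the mast cell sum was 5046 on GFP+ replicate 1, 1475 on GFP+ replicate 2 and 4967 to 6311 on the GFP- arrays. Rag1-/- GFP+ replicate 1, the array with the lowest median of the replication genes, was also the GFP+ array with the highest mast cell sum. The 9 keratinocyte genes summed to 2262 and 2655 on the Rag1-sufficient GFP+ and to 2685 and 4110 on the GFP- arrays, where the basal keratin gene Krt14 read 300.5 and 277 against 375 and 782. Of 9 myeloid genes all 9 had negative differences. Xcr1, a dendritic cell receptor, fell (38.3 and 38.2 against 68.2 and 65.0, -0.78 ± 0.07, adjusted p = 0.00843). Its GFP+ values lie under the filter limit, so the size is approximate. The call was lost when any 1 of these 4 arrays was left out, and Xcr1 was not tested with the lowest 50% of probe sets left out. The 8 T cell genes summed to 1978 and 2428 against 1580 and 1592, but 4 of them had positive and 4 negative differences, with a median of -0.02 and no call. In Rag1-/- mice the T cell genes summed to between 3095 and 6342. The part of these markers in the differences of the replication genes was not tested. The general ILC genes summed to between 20570 and 23554 over the 4 groups, with 3 of 6 differences between the Rag1-sufficient fractions positive, from -0.57 to 0.64. The 8 ILC2 genes summed to 13684 and 14406 on the GFP+ and 15866 and 15082 on the GFP- arrays, with none called in limma's test.

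**Figure D4:**
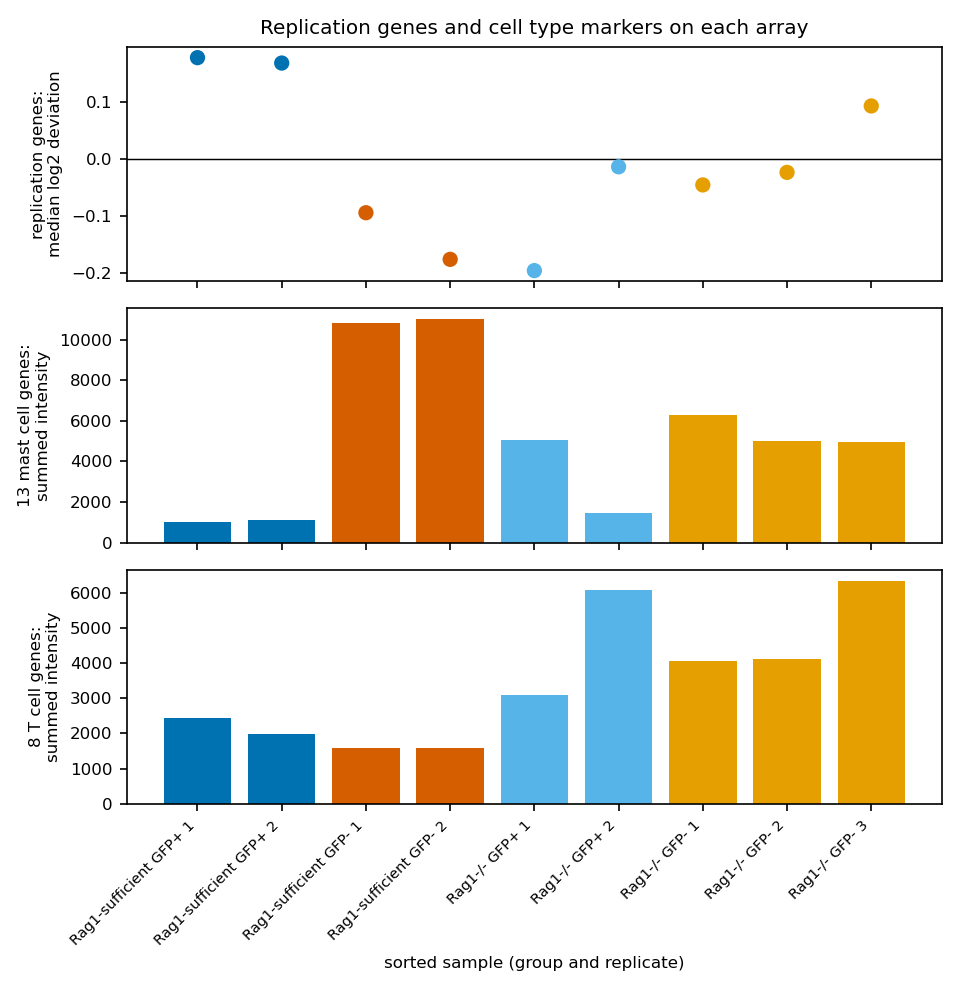
For each of the 9 arrays, the top panel gives the median over 47 replication genes of log2(intensity + 1) minus the gene's mean, and the bars give summed intensity of 13 mast cell and 8 T cell genes, from 0. The 2 Rag1-sufficient GFP+ arrays have the highest replication medians (0.18 and 0.17) and the lowest mast cell sums (1025 and 1133), and the lowest median (-0.19) is on Rag1-/- GFP+ replicate 1.

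The second comparison set GFP+ cells of Rag1-/- mice against those of Rag1-sufficient mice, to see what goes with loss of Rag1. No replication gene passed in limma's test (0 of 45, where 0.246% of all probe sets were called), while 18 had an unadjusted p under 0.05 and a negative difference, as had 4.57% of all probe sets. The median member differed by -0.29, against -0.02 over all genes, and 3 of 47 differences were positive, as were 44.7% of all named genes. In 29 members both Rag1-/- arrays read below both Rag1-sufficient arrays, as in 17.2% of all named genes. In 1 member, Rfc2, both read above, as in 10.8%. This comparison uses the same Rag1-sufficient GFP+ arrays as the first, so the values of both are not independent.

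Chaf1b came nearest to the threshold. It read 73.7 and 81.1 in Rag1-/- against 128 and 134 in Rag1-sufficient GFP+ cells, a difference of -0.75 ± 0.12 (adjusted p = 0.0570), and passed (adjusted p = 0.0487) without Rag1-/- GFP- replicate 3, among 35 probe sets. Its groups are far apart for their spread. Asf1b read 203 and 282 against 448 and 546 (-1.04 ± 0.19, adjusted p = 0.111). Rfc4 read 135 and 191 against 377 and 348 (-1.17 ± 0.27, adjusted p = 0.263), and the difference was the largest among the members. Prim2 read 78.4 and 141 against 172 and 239 (-0.94 ± 0.25, adjusted p = 0.373), Rag1-/- replicate 1 being far lower than replicate 2. Pole2 differed by -0.72 ± 0.21 and Pola1 by -0.59 ± 0.14 (adjusted p = 0.453 and 0.282). Pole2 read 33.0 on Rag1-/- replicate 1, under the filter limit, so its size is approximate. Without Rag1-/- GFP+ replicate 2, which leaves replicate 1 alone in its group, 2 members passed, Prim2 (-1.36) and Asf1b (-1.28), and 138 probe sets in all, against 43 with every array. Without replicate 1 the median member stood at -0.18 and no member passed.

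The replicates of Rag1-/- GFP+ cells differed for several members. Rrm1 read 429 and 793, Pcna 2858 and 4228, Mcm4 208 and 295 and Mcm6 215 and 296 on replicates 1 and 2. In each of these, replicate 2 was near the level of the Rag1-sufficient GFP+ or the Rag1-/- GFP- arrays and replicate 1 well below it. Chaf1b (73.7 and 81.1), Cdt1 (184 and 184) and Tyms (105 and 105) agreed between the 2 arrays. Of 18 mitotic genes, Nusap1 fell (-1.19 ± 0.12, adjusted p = 0.0162), all 18 had negative differences and the median was -0.61. The Nusap1 call was lost in limma's test with the replicate block (adjusted p = 0.0804) and with only the groups compared (0.560). It was also lost when any 1 Rag1-sufficient array was left out. In the 4 other cell cycle lists none of those tested was called, with medians of -0.21 for the 35 further fork and origin genes, -0.15 for the G1 to S genes, -0.14 for repair and checkpoint genes and -0.11 for the nucleotide synthesis genes. The T cell gene Cd3e rose in the same comparison (2.68 ± 0.39, adjusted p = 0.0419). Its call was lost in limma's test without the filter (adjusted p = 0.0665), without the intensity trend (0.0641) and with probe sets averaged (0.0692). It was also lost with the replicate block (0.130), with only the groups compared (0.685) and without any 1 of the Rag1-/- GFP- arrays (0.0791 to 0.115). T cell sums were 3095 and 6072 against 1978 and 2428, with 3 of the 8 T cell genes slightly negative. Of 13 mast cell genes 12 had positive differences, up to 3.25, and of 9 keratinocyte genes 8 had negative ones, with a median of -0.60 and none called in either list. The part of such cells in the values of the replication genes was not tested.

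In Rag1-/- mice no replication gene was called between the fractions. GFP+ against GFP- gave 0 calls of 45 (and 0 of all 17445 probe sets, 0%) in limma's test, with 5 members at an unadjusted p under 0.05, all lower, as were 4.79% of all probe sets. The median member differed by -0.12, against 0.02 over all genes, and 11 of 47 differences were positive, as were 55.1% of all named genes. Both GFP+ arrays read below all 3 GFP- arrays in 9 members, as in 8.50% of all named genes, and above them in 2, as in 7.40%, of which Tyms was tested and Gins1 lies below the filter limit. The median was -0.03 and -0.24 when GFP+ replicates 1 and 2 were left out in turn, and -0.07 when GFP- replicate 3 was.

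Chaf1b read 73.7 and 81.1 on the GFP+ and 108, 121 and 97.2 on the GFP- arrays of Rag1-/- mice (-0.48 ± 0.11, adjusted p = 0.688). Cdt1, the licensing factor that brings MCM to origins, read 184 and 184 against 211, 338 and 368 (-0.69 ± 0.24, adjusted p = 0.688), and Mcm3 read 80.1 and 91.4 against 105, 123 and 120.4 (-0.43 ± 0.13, adjusted p = 0.688). In these 3 the groups do not overlap. Rfc4 read 135 and 191 against 158, 188 and 277 (-0.33 ± 0.25, 95% interval -0.89 to 0.24), and Asf1b read 203 and 282 against 273, 282 and 318 (-0.28 ± 0.17, 95% interval -0.68 to 0.12). The large values for Rfc3 (-0.55 ± 0.30), Gins4 (-0.49 ± 0.30) and Prim2 (-0.40 ± 0.23) each turn on 1 array. GFP- replicate 3 read 199 for Rfc3, against 85.4 and 104 on the other GFP- arrays, and 384 for Gins4, against 190.0 and 193. For Prim2, GFP+ replicate 1 read 78.4 where the other 4 Rag1-/- arrays read 139 to 141, and without it the Prim2 difference was 0.02.

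The other members of the main roles read as follows in Rag1-/- cells, GFP+ before GFP-. The helicase subunit Mcm2 read 218 and 263 against 269, 287 and 275, Mcm5 read 135 and 157 against 164, 164 and 183 and Mcm7 read 181 and 239 against 269, 250.5 and 304. In each of these both GFP+ arrays were below all GFP- arrays, the reverse of the order in Rag1-sufficient mice. Mcm4 read 208 and 295 against 278, 240.5 and 295 and Mcm6 read 215 and 296 against 268, 271 and 364, and both overlap. Among the genes that join the helicase or license it, Cdc45 read 124 and 120.2 against 123, 112 and 131, Gins2 read 140.2 and 119.6 against 117, 127 and 113 and Cdc6 read 72.9 and 69.7 against 60.97, 84.0 and 73.8, all overlapping. Polymerase epsilon, Pole, read 42.3 and 47.1 against 47.1, 47.1 and 44.6, with equal values on 3 of the arrays. Prim1 read 43.7 and 46.8 against 39.8, 45.5 and 50.7, and Pcna read 2858 and 4228 against 3537, 3546 and 3846. Of the nucleotide supply genes, Rrm2 read 226 and 241 against 241, 207 and 308 and Tk1 read 123 and 122 against 124, 119 and 100.3, while thymidylate synthase, Tyms, was higher on both GFP+ arrays, with 105 and 105 against 78.7, 98.7 and 96.5. The ligase Lig1 read 74.1 and 80.6 against 80.8, 81.7 and 84.6 and the nuclease Fen1 read 80.3 and 88.4 against 102, 87.8 and 93.9. Uhrf1 read 44.3 and 53.7 against 60.9, 60.1 and 70.5, without overlap.

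Among GFP- cells, loss of Rag1 gave a median member slightly above 0. No member was called (0 of 45, where 0.143% of all probe sets were), and 5 had an unadjusted p under 0.05 in limma's test, all higher, as were 10.0% of all probe sets. The median member differed by 0.12, against -0.03 over all genes, and 35 of 47 differences were positive, as were 42.4% of all named genes. In 17 of 47 members all 3 Rag1-/- arrays read above both Rag1-sufficient arrays, as in 17.2% of all named genes, and in 1, Dna2, below, as in 19.6%. The Rag1-/- GFP- values of Dna2, 40.7 to 41.3, lie under the filter limit. Rfc4 had the largest difference, with 158, 188 and 277 in Rag1-/- against 91.5 and 118 in Rag1-sufficient GFP- cells (0.95 ± 0.25, adjusted p = 0.161). Rrm1 read 695, 698 and 877 against 561 and 505 (0.50 ± 0.25, adjusted p = 0.334), and Prim2 read 141, 139 and 139 against 99.7 and 104 (0.45 ± 0.23, adjusted p = 0.346). In these 3 the genotypes do not overlap. Between Rfc4 and these in size lay Rfc3 (0.57 ± 0.30), Gins4 (0.55 ± 0.30) and Cdt1 (0.53 ± 0.24). Among their Rag1-/- values replicate 3 alone was high for Rfc3 and Gins4, and replicates 2 and 3 for Cdt1. The dimmer probe set of Rpa3, not used in this order, gave 1.03, where the brighter gave 0.25. Without Rag1-/- GFP- replicate 1 the median member stood at 0.18. The mast cell genes summed here to 4967 to 6311 against 10805 to 11001, with all 13 differences negative and none called. Xcr1 fell (-0.72 ± 0.07, adjusted p = 0.0125), and 8 of 9 myeloid differences were negative. The Xcr1 call was lost in limma's test without Rag1-/- GFP- replicate 2 (adjusted p = 0.0687) or 3 (0.0641), and without either Rag1-sufficient GFP- array. It was also lost with the replicate block (0.0949) and with only the groups compared (0.0503). With the lowest 50% of probe sets left out Xcr1 was not tested. The keratinocyte genes had a median of -0.85 and the T cell genes one of 0.42, up to 1.87, with none called in limma's test in either list. The part of these markers in the values of the replication genes was not tested.

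Whether the difference between the fractions depends on Rag1 was tested as the interaction, the GFP+ minus GFP- difference in Rag1-/- minus that in Rag1-sufficient mice. No member passed (0 of 45, and 0% of all probe sets), with 21 members at an unadjusted p under 0.05, all negative, as were 9.85% of all probe sets. The median was -0.45, against 0.02 over all genes, and 3 of 47 members were positive, as were 53.9% of all named genes. The smallest adjusted p was that of Chaf1b, 0.0723, with an interaction of -1.11 ± 0.16. Rfc4 had the largest interaction, -2.12 ± 0.37 (adjusted p = 0.116), followed by Prim2 (-1.39 ± 0.34, adjusted p = 0.241) and Asf1b (-1.36 ± 0.26, adjusted p = 0.156). Rrm1 (-1.05 ± 0.37) and Gins4 (-0.97 ± 0.45) came next. This order holds for the brighter probe sets: the dimmer one of Rpa3 gave -1.72, where the brighter gave -0.64. In 6 members, Mcm2, Mcm3, Mcm5, Mcm7, Rfc5 and Chaf1b, the GFP+ arrays read above all GFP- arrays in Rag1-sufficient and below all GFP- arrays in Rag1-/- mice, as in 2.71% of all named genes. Among the tested genes of the 5 other cell cycle lists none was called for the interaction, nor for GFP+ against GFP- in Rag1-/- mice, nor between the genotypes in GFP- cells. Leaving out Rag1-/- GFP+ replicate 2 leaves 1 array in that group. The interaction was then -2.37 for Rfc4, -1.81 for Prim2, -1.60 for Asf1b, -1.49 for Rrm1 and -1.18 for Chaf1b. The remaining array had the higher mast cell sum of the 2 Rag1-/- GFP+ arrays (5046 against 1475), and the part of mast cells in these values was not tested. With array weights 1 member passed, Chaf1b (-1.17, adjusted p = 0.0403).

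The promoter matches were set beside the differences as a description. The 15 members with the letters had a median difference between the fractions of Rag1-sufficient mice of 0.28, from 0.05 to 0.59, and the 24 with a window but without the letters one of 0.29, from -0.09 to 1.79. The upper end of the second set is Rfc4.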

How the data were processed

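Affymetrix arrays of 9 sorted skin samples were analysed from the linear intensity values that the authors deposited, 1 value per probe set and array. The submitters' processing notes name MAS5, and its settings are not given in the sources used here. Values were used without further scaling as log2(intensity + 1). The 30% of the 24922 probe sets with the lowest mean log2 value (limit 41.6 units) were left out, and 17445 were tested with limma 3.58.1 in R 4.3.3: 4 group means, moderated variances with an intensity trend, and Benjamini-Hochberg adjustment over all of them at 0.05. The number of arrays limits the precision, with 5 residual degrees of freedom.

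Probe sets were named from the platform annotation (21425 with 1 symbol, 1399 with several, which were not used, and 2098 with none). The 47 members, the 5 other cell cycle lists and the 10 marker lists were chosen with earlier results of these data known, and the promoter motifs after values were seen. Genes named were the members called, the 6 with the largest differences in each comparison, a fixed set of members for each role, and of the other lists the called genes, those with the largest differences and a fixed few; other members named were chosen after their values were seen. The fit was tested on simulated data. Alternatives were the pseudocount, the filter, quantile normalization, array weights, the trend, the groups fitted, the replicate block, averaged probe sets and each array left out. B cell genes summed to 199 to 251 units over the 9 arrays, NK and ILC1 genes to 457 to 1105, myeloid genes to 435 to 647, ILC2 genes to 13684 to 16035, fibroblast genes to 767 to 1608 and endothelial genes to 288 to 425.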

Additional observations from a re-analysis of the deposited data

How the results depend on the processing

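Of 99 gene differences followed over 18 settings, 12 of 1772 values turned sign, 45 gained and 65 lost a call where tested. The count of replication genes called between the fractions of Rag1-sufficient mice, 2, was 1 without the filter, 4 after quantile normalization, 14 with array weights, 3 with probe sets averaged (Rfc4, Prim1 and Asf1b) and 1 with only the groups compared fitted; leaving out single arrays gave 0 to 4. Between the genotypes in GFP+ cells it was 1 with the lowest 50% of probe sets left out, and 0 to 2 over the arrays left out. In GFP- cells it was 2 with array weights. For the interaction it was 1 with array weights and 0 to 6 over the arrays left out, and the median member moved to -0.33 under quantile normalization. Leaving out arrays gave medians of -0.24 to -0.030 between the fractions of Rag1-/- mice, -0.37 to -0.18 between the genotypes in GFP+ cells, 0.081 to 0.18 in GFP- cells, 0.28 to 0.34 between the fractions of Rag1-sufficient mice and -0.52 to -0.33 for the interaction. No median turned sign in the settings run. Between the fractions of Rag1-sufficient mice, Tk1 became 0.0014 after quantile normalization, 0.055 with probe sets averaged and -0.064 to 0.057 over the arrays left out; Cdc6 ran from -0.10 to 0.47, Uhrf1 from -0.0038 to 0.15 and Gins2 from -0.011 to 0.38. Between the fractions of Rag1-/- mice, Prim1 became -0.034 after quantile normalization and ran from -0.084 to 0.086, Prim2 from -0.82 to 0.018 and Rrm1 from -0.81 to 0.077. Where 1 array is left in a group it is assumed to vary like the others. The causes were not tested. Same-numbered samples correlated at -0.43 to 0.24 in their deviations from group means, so the numbers were not taken to pair samples; with the replicate block 2 members were called between the fractions of Rag1-sufficient mice, Rfc4 and Prim1, of 73 probe sets (140 without the block), and none in the other comparisons. Dim probe sets limit Gins1, Gmnn and Prim1, and Pole2 and Dna2 also read under the filter limit on some arrays.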
